A study of Oryza sativa with 8 samples.

Results

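The loci described here are those of a rice RNA-seq table whose annotation text holds the word tubulin, kinesin or microtubule, in capitals or not. They number 97 of the 55801 loci in the table, and 89 of them reached a mean of at least 1 FPKM (a read level corrected for transcript length and for how many fragments were mapped in each library) over the 8 libraries and were tested. By annotation, 19 are tubulins, 7 act in tubulin folding or modification, 1 is a component of the gamma-tubulin complex, 55 are kinesins and 15 are microtubule-associated proteins. Seedlings were wild type rice of the cultivar Nipponbare, and the tissues were the first leaf of seedlings 3 days old and the coleoptile, the sheath around the shoot of a grass seedling, at 2 days. In each tissue 2 libraries came from seedlings held for 1 h in simulated shade (red light at 16, blue at 1.3 and far-red at 48 µE per square metre per second) and 2 from seedlings left in white light. Seeds had been soaked at 37 °C for 24 h and seedlings raised at 28 °C in continuous white light. Tissue and age differed together and cannot be told apart. Nothing in the labels ties the replicates to separate cultures. The p-values therefore reflect the spread between 2 libraries per group, pooled for each locus over the 4 groups, and that spread may be technical.

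Microtubules are hollow filaments built from dimers of alpha- and beta-tubulin, which reach their folded state with the help of dedicated chaperones and cofactors, and new filaments start from complexes that hold gamma-tubulin. Kinesins are motors that walk along microtubules, slide them past each other or take them apart at their ends, and microtubule-associated proteins bind, bundle or steer them. In a growing grass shoot, microtubules under the plasma membrane guide where cellulose is laid down, while in dividing cells they form the preprophase band, the spindle and the phragmoplast.

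Summed FPKM lay between 696059 and 808054 per library, and 26693 to 28127 loci were above 0. Of the 21014 loci tested, 6.61% differed over 2-fold between the replicates of the shaded first leaf, 5.55% in the white light first leaf, 4.53% in the shaded coleoptile and 21.8% in the white light coleoptile, whose replicates were thus the furthest apart of the 4 groups. Markers of stress and wounding (WRKY, ZIM domain and lipoxygenase annotations) were summed over 126 loci, 85 of them tested. They stood at 6016 FPKM in white light coleoptile replicate 1 and at 3332 FPKM in replicate 2. In the other 6 libraries they stood between 1478 and 2225 FPKM. Photosynthesis markers (81 loci, 44 of them tested) summed to between 48909 and 61369 FPKM in the 4 first leaf libraries and between 21339 and 36157 FPKM in the 4 coleoptile libraries. In bulk tissue, fewer cells of a type and less RNA per cell cannot be told apart.

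A few tubulin loci made up most of the tubulin signal. FPKM is scaled to transcript length, so levels can be set side by side between loci, though reads of near-identical tubulin copies can be divided between them and single values are uncertain to that extent. Of the 19 tubulin loci, 16 are annotated as tubulin/FtsZ domain proteins, a text that does not separate alpha- from beta-tubulin or from FtsZ, the tubulin relative of plastid division. LOC_Os06g07280, the 1 locus annotated as a tubulin beta-1 chain, was listed at 0 in each of the 8 libraries. The top 3 loci by mean FPKM held 62.1% to 68.4% of summed tubulin FPKM in each library, and the top 9 held 90.9% to 94.2%.

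The most abundant tubulin, LOC_Os11g14220, stood at 1724 and 1146 FPKM in the shaded first leaf, 1147 and 1200 FPKM in the white light first leaf, 1248 and 1260 FPKM in the shaded coleoptile and 1181 and 1248 FPKM in the white light coleoptile. Its libraries lay within 1.51-fold of each other, with replicate 1 of the shaded first leaf as the high one. Its share of summed tubulin FPKM was 30.4% to 34.0% in the 4 first leaf libraries and 36.7% to 39.2% in the 4 coleoptile libraries, so the shares did not overlap although the FPKM levels did. LOC_Os03g51600 followed with 1018 and 838 FPKM in the shaded and 735 and 787 FPKM in the white light first leaf, and with 749 and 703 FPKM in the shaded and 598 and 684 FPKM in the white light coleoptile. Below these came LOC_Os07g38730 at a mean of 343 FPKM, LOC_Os01g59150 at 306 FPKM and LOC_Os02g07060 at 215 FPKM. Further down, LOC_Os05g34170 averaged 102 FPKM, and the lowest tested tubulin, LOC_Os12g39650, averaged 2.88 FPKM. Neighbours in this order often overlapped: LOC_Os07g38730 spanned 239 to 486 FPKM over the libraries and LOC_Os01g59150 spanned 180 to 497 FPKM.

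**Figure D1:**
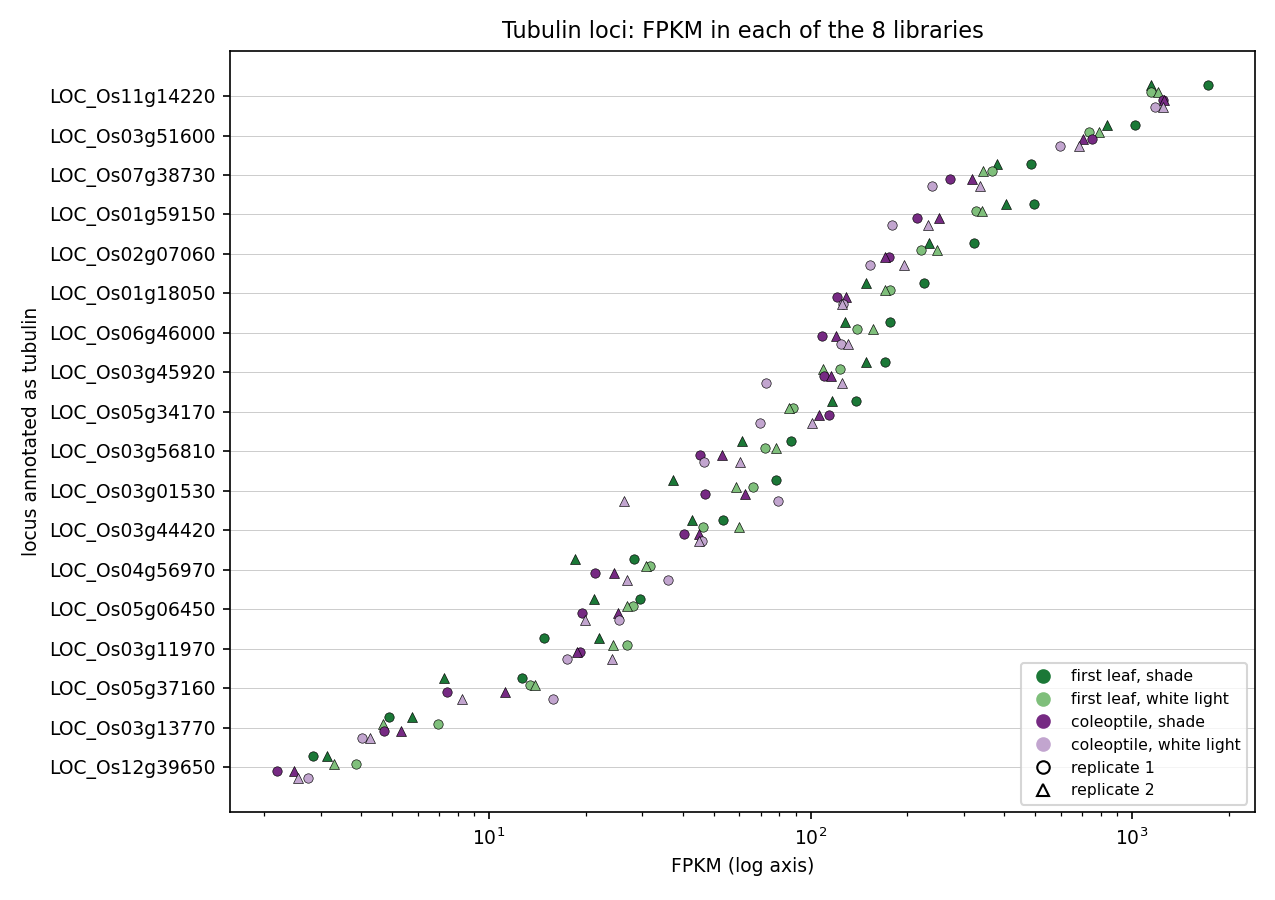
FPKM of the 18 tested tubulin loci in each of the 8 libraries on a log axis, by mean level, with colour for tissue and light and shape for replicate. LOC_Os11g14220 lies at the top, between 1146 and 1724 FPKM, and the lowest locus averages 2.88 FPKM.

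The other groups were lower. The 50 tested kinesins had a median mean level of 8.62 FPKM, from 1.76 to 69.2 FPKM, and the 13 tested microtubule-associated loci had a median of 18.6 FPKM, from 1.83 to 56.4 FPKM. The kinesin with the highest mean, LOC_Os05g06280, carries the annotation KINESIN-13A, a family known for taking microtubules apart at their ends. It had 72.0 and 66.0 FPKM in the shaded and 62.4 and 73.2 FPKM in the white light first leaf, against 68.5 and 79.9 FPKM in the shaded and 69.3 and 62.4 FPKM in the white light coleoptile. The values overlapped between tissues and between lights, within 1.28-fold over the 8 libraries. Over the set, 14 of the 89 tested loci stayed within 1.5-fold and 42 within 2-fold from the lowest to the highest library, with a median of 2.06-fold against 2.13-fold over all loci tested.

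Most folding factors varied little. The 7 tested loci of tubulin folding and modification had a median range of 1.41-fold over the libraries, although the tubulin-tyrosine ligase-like locus LOC_Os03g08140 spanned 5.19-fold. Tubulin-specific chaperone A, LOC_Os02g57150, which takes part in handling newly folded beta-tubulin, averaged 49.2 ± 4.12 FPKM in the first leaf and 45.7 ± 2.36 FPKM in the coleoptile (SD, n = 4 each). One of the 3 loci of tubulin binding cofactor C, LOC_Os02g10130, a factor of the dimer assembly step, had 22.3, 23.7, 21.0 and 25.2 FPKM in the first leaf, shaded libraries first, and 28.5, 29.6, 28.0 and 27.3 FPKM in the coleoptile. Its first leaf libraries all lay below its coleoptile libraries, but neither comparison passed the test (limma adjusted p = 0.381 in white light and 0.260 in shade). Chaperone E, LOC_Os05g01500, kept to 8.49 to 8.66 FPKM in the 4 first leaf libraries and to 6.69 to 9.24 FPKM in the coleoptile. The gamma-tubulin complex component 6 locus, LOC_Os04g47906, which belongs to the nucleating complex, averaged 10.8 ± 2.25 FPKM in the first leaf and 11.0 ± 1.39 FPKM in the coleoptile (SD, n = 4 each).

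The first question was how the first leaf differed from the coleoptile. In white light, 3 kinesins and 3 microtubule-associated loci were higher in the first leaf, and the same 6 were higher in shade, together with 1 more kinesin and 1 tubulin. No member was called lower in the first leaf in either light. Fits were made with limma on log2(FPKM + 1) over all 21014 loci, with calls at a Benjamini-Hochberg adjusted p under 0.05. In white light 6 of 89 members were called higher and 0 lower, where 11.0% of all loci tested were called, 5.92% higher and 5.03% lower. In shade 8 were called higher and 0 lower, where 10.3% of all loci were called, 5.67% higher and 4.63% lower. Members called higher were thus 6.74% of those tested in white light and 8.99% in shade. At an unadjusted p under 0.05, 3 members were lower in the first leaf in each light. The 2 comparisons share no library, and the 6 loci called in white light are all among the 8 called in shade. Both use the same spread of each locus, pooled over all 8 libraries, so the 2 sets of calls are not independent.

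Among motors, LOC_Os08g43400, annotated only by its kinesin motor domain, had 74.2 and 91.4 FPKM in the shaded and 61.6 and 82.2 FPKM in the white light first leaf, against 26.4 and 24.7 FPKM in the shaded and 24.9 and 20.2 FPKM in the white light coleoptile. The lowest first leaf library was above the highest coleoptile library. The difference was 1.65 ± 0.21 in shade and 1.62 ± 0.21 in white light (log2, SE; limma adjusted p = 0.00388 in each). LOC_Os04g53760, another motor domain locus, had 52.5 and 66.1 FPKM in the shaded and 62.3 and 62.1 FPKM in the white light first leaf, against 22.5 and 21.2 FPKM in the shaded and 25.6 and 13.3 FPKM in the white light coleoptile. Its groups did not overlap between tissues, and the low library was white light coleoptile replicate 2. The log2 difference was 1.39 ± 0.28 in shade (adjusted p = 0.0240) and 1.69 ± 0.28 in white light (adjusted p = 0.0114). LOC_Os04g45580 was the steadiest of the called motors within the first leaf, at 41.8, 41.3, 42.0 and 41.0 FPKM, against 21.6, 23.4, 26.4 and 20.9 FPKM in the coleoptile, with shaded libraries first in each tissue. Its log2 difference was 0.86 ± 0.16 in shade (adjusted p = 0.0192) and 0.79 ± 0.16 in white light (adjusted p = 0.0239).

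LOC_Os07g01490, a motor domain locus too, was called in shade, with 52.3 and 51.5 FPKM in the first leaf against 31.2 and 25.4 FPKM in the coleoptile (log2 difference 0.86 ± 0.17, limma adjusted p = 0.0213). In white light it had 42.2 and 41.4 FPKM in the first leaf against 28.5 and 34.2 FPKM in the coleoptile, a difference of 0.41 that did not pass (adjusted p = 0.186). Whether its tissue difference changed with light was tested as the difference of shade responses, 0.45 ± 0.24, and did not pass (limma adjusted p = 1.00). The opposite direction was seen for LOC_Os01g15540, a kinesin at 7.51 and 8.99 FPKM in the shaded first leaf against 17.6 and 17.1 FPKM in the shaded coleoptile. That difference of -0.99 ± 0.26 missed the threshold (adjusted p = 0.0591), and in white light, with 7.42 and 6.32 FPKM in the first leaf and 7.84 and 14.0 FPKM in the coleoptile, it was -0.55 (adjusted p = 0.253).

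Microtubule-associated loci gave 3 of the 6 calls in white light from 13 tested loci (23.1%). Kinesins gave 3 from 50 (6.0%) and tubulins 0 from 18, where 5.92% of all loci tested were called higher. LOC_Os09g13650 had 56.0 and 63.8 FPKM in the shaded and 47.1 and 63.2 FPKM in the white light first leaf, against 23.7 and 18.1 FPKM in the shaded and 19.9 and 13.5 FPKM in the white light coleoptile (log2 difference 1.49 ± 0.25, limma adjusted p = 0.0116, in shade and 1.67 ± 0.25, adjusted p = 0.00697, in white light). LOC_Os08g41890 had 55.8 and 83.3 FPKM in the shaded and 70.6 and 60.1 FPKM in the white light first leaf, against 23.9 and 21.2 FPKM in the shaded and 22.6 and 11.3 FPKM in the white light coleoptile. For both loci the tissues did not overlap, and white light coleoptile replicate 2 was the lowest library. LOC_Os08g41890 differed by 1.56 ± 0.33 in shade (adjusted p = 0.0264) and 1.95 ± 0.33 in white light (adjusted p = 0.0112). LOC_Os03g13460 had 71.6 and 95.8 FPKM in the shaded and 71.3 and 81.3 FPKM in the white light first leaf, against 33.1 and 34.7 FPKM in the shaded and 36.1 and 27.7 FPKM in the white light coleoptile, a log2 difference of 1.27 ± 0.21 in shade (adjusted p = 0.0106) and 1.24 ± 0.21 in white light (adjusted p = 0.0108). Summed over the microtubule-associated loci, FPKM was 407 to 435 in the 4 first leaf libraries and 202 to 276 in the 4 coleoptile libraries, without overlap. Without the 3 called loci, the other 10 tested loci summed to 174 to 238 FPKM in the first leaf and 141 to 195 FPKM in the coleoptile, and overlapped between the tissues.

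**Figure D2:**
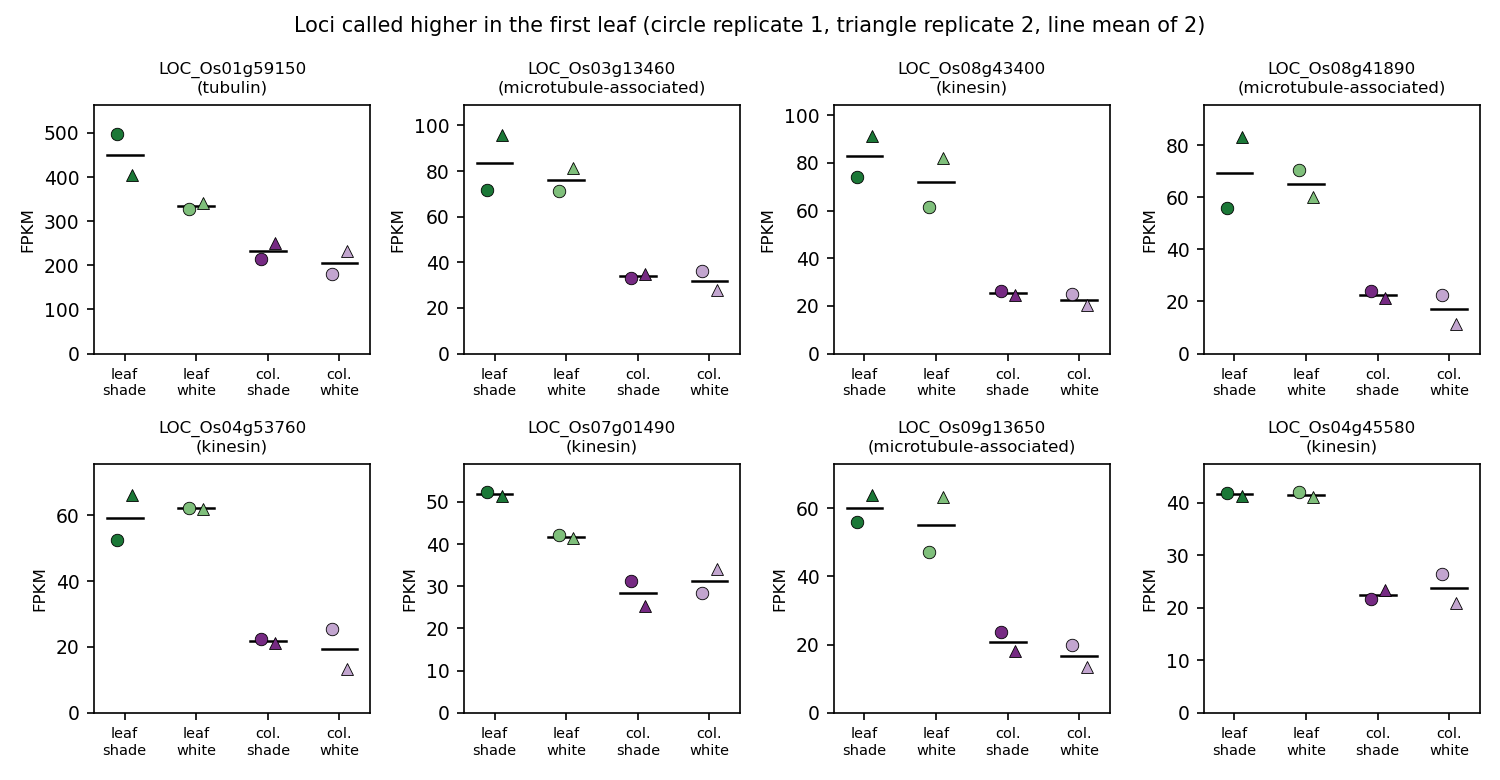
FPKM of the 8 loci called higher in the first leaf in at least 1 light, by group, with circles for replicate 1, triangles for replicate 2 and a line at the mean of 2 libraries; axes start at 0. In each panel the 4 first leaf libraries lie above the 4 coleoptile libraries.

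Most tubulins had a positive difference between the tissues too. Of the 18 tested, 17 had a positive first leaf minus coleoptile difference in white light and 16 in shade, where 52.1% and 50.2% of all loci tested were positive. The medians were 0.29 and 0.23 (log2), against 0.02 and 0.00 over all loci tested. With 1 compared library left out, 14 to 17 were positive in white light and 12 to 17 in shade. Loci matched by the words core histone or cyclin (106 tested) were taken as dividing cell markers. They were positive at 82 loci in white light, with a median of 0.32, and at 74 in shade, with a median of 0.13. The match did not exclude other texts that hold cyclin, such as cyclin-like F-box, so not all are markers of dividing cells. Their highest difference in shade was 2.43, against 1.24 in the stricter cyclin list and 0.78 in the core histone list. The core histone list was matched by the names of single histones too and lies partly outside those 106 loci. It was positive at 45 of 47 loci in white light, with a median of 0.52, and at 36 of 47 in shade, with a median of 0.12. Without white light coleoptile replicate 2, the white light counts were 52 of 106 and 21 of 47, against 14 of 18 tubulins. The part of dividing cells in the tubulin differences was not tested. LOC_Os01g59150 was the tubulin called, with 497 and 405 FPKM in the shaded first leaf against 214 and 250 FPKM in the shaded coleoptile (0.95 ± 0.21, limma adjusted p = 0.0333). In white light it had 327 and 341 FPKM in the first leaf against 180 and 232 FPKM in the coleoptile, and did not pass (0.71 ± 0.21, adjusted p = 0.0846). The shade call was lost under 10 of 16 alternatives, among them median scaling, quantile normalization and leaving out either shaded first leaf or either shaded coleoptile library. Its share of summed tubulin FPKM was 9.03% to 10.8% in the first leaf libraries and 5.96% to 7.31% in the coleoptile libraries. Summed tubulin FPKM was 5069 and 3762 in the shaded and 3620 and 3742 in the white light first leaf, against 3318 and 3421 in the shaded and 3017 and 3395 in the white light coleoptile. Each first leaf library was above each coleoptile library, and replicate 1 of the shaded first leaf stood highest. In that library 11 of the 18 tubulins were at their maximum, where 2060 of the 21014 loci tested were.

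Counting loci whose 4 first leaf libraries all lay above their 4 coleoptile libraries gave 18 of 89 members (20.2%), where 13.7% of all loci did so, and 5 of 89 (5.62%) lay below, where 11.3% of all loci did. By group, 6 of 18 tubulins, 7 of 50 kinesins and 5 of 13 microtubule-associated loci lay above. Below were 4 kinesins, LOC_Os01g01570, LOC_Os03g64415, LOC_Os06g36080 and LOC_Os08g02380, and the cofactor C locus LOC_Os02g10130. Among those above was LOC_Os04g54940, 1 of the loci annotated as like EB1A, an Arabidopsis protein of microtubule plus ends, with 13.0, 11.7, 12.6 and 12.6 FPKM in the first leaf against 7.49, 8.91, 11.0 and 7.56 FPKM in the coleoptile, shaded libraries first (limma adjusted p = 0.169 in shade and 0.273 in white light). The kinesin-4 locus LOC_Os12g36100 was separated narrowly, with a lowest first leaf library of 3.18 FPKM and a highest coleoptile library of 3.17 FPKM.

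The number of tissue calls rested on single libraries, and calls over all loci fell or rose in the same fits as those of the members. The 4 white light libraries fitted alone called 289 of 21014 loci higher in the first leaf, against 1245 in the fit reported. In white light, 2 members were called higher without white light first leaf replicate 1, 1 without its replicate 2, and 0 when the 4 white light libraries were fitted alone. Without white light coleoptile replicate 1, its group was left with 1 library. The members then had a median white light difference of 0.35 (log2), with 66 of 89 positive, where 51.0% of all loci were. In the same fit LOC_Os01g15540, LOC_Os06g36080, LOC_Os08g02380 and LOC_Os11g42800 had log2 differences from -1.12 to -0.86. In shade, the median difference of the 89 members was 0.12 (log2) with all libraries. It was -0.12 without shaded first leaf replicate 1 and 0.36 without its replicate 2. Without shaded coleoptile replicate 1 or 2 it was -0.01 or 0.23. Medians over all loci tested lay from -0.01 to 0.02 in these fits. LOC_Os08g43400 was called under all 16 alternatives in shade and under 14 of 15 in white light, the exception being the fit of the 4 white light libraries alone.

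The second question was what 1 h of shade did. No member passed the test in either tissue. In the shaded coleoptile 0 of 89 were called (0.0428% of all loci were called, 0.0333% higher and 0.00952% lower), and at an unadjusted limma p under 0.05 there was 1 higher and 0 lower. In the shaded first leaf 0 were called (0.0% of all loci), with 2 higher and 0 lower at that unadjusted p. The difference of the 2 shade responses gave 0 calls as well (0.019% of all loci, 0.00476% higher and 0.0143% lower), with 0 at the unadjusted p. The intervals were wide enough to hold sizeable changes. For LOC_Os11g14220 the change in the first leaf was 0.26 with a 95% interval from -0.38 to 0.90 (log2), and in the coleoptile 0.05 from -0.59 to 0.69. As the spread of a locus is pooled over all groups, its coleoptile interval also carries the spread between its first leaf replicates.

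In the first leaf, the tubulin with the most positive shade change was LOC_Os05g34170, with 139 and 117 FPKM in shade against 88.1 and 85.6 FPKM in white light. Shaded libraries lay above white light ones, and the change was 0.55 ± 0.21 (limma adjusted p = 0.835, unadjusted 0.0347). In the coleoptile the same locus had 114 and 106 FPKM in shade against 69.5 and 101 FPKM in white light, a change of 0.39 ± 0.21 (adjusted p = 0.649). LOC_Os01g59150 changed by 0.42 ± 0.21 in the first leaf and 0.18 ± 0.21 in the coleoptile, and LOC_Os03g45920 by 0.45 ± 0.26 and 0.24 ± 0.26. Negative values were found for LOC_Os04g56970, at -0.43 in each tissue, and for LOC_Os03g11970, at -0.47 in the first leaf. None of these passed, and 9 of 18 tubulins had a positive change in the first leaf (51.0% of all loci) and 8 of 18 in the coleoptile (52.9% of all loci). The first leaf count was 6 without shaded first leaf replicate 1 and 13 without its replicate 2.

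**Figure D3:**
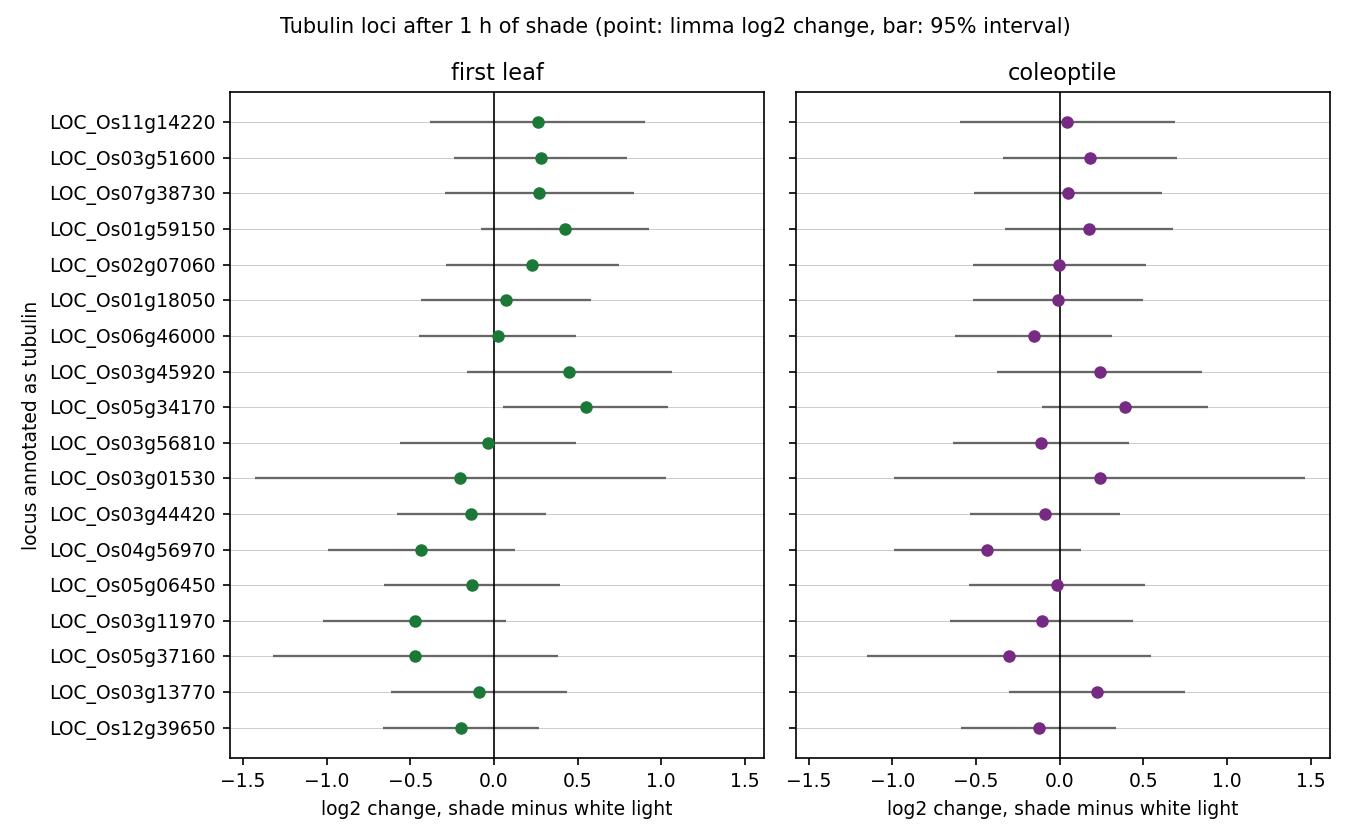
Log2 change of the 18 tested tubulin loci after 1 h of shade in the first leaf (left) and the coleoptile (right), on the log2(FPKM + 1) scale, with 95% intervals from limma. LOC_Os05g34170 in the first leaf is the case whose interval lies above 0; its adjusted p was 0.835.

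Among kinesins in the coleoptile, LOC_Os01g15540 had 17.6 and 17.1 FPKM in shade against 7.84 and 14.0 FPKM in white light (0.67 ± 0.26, limma adjusted p = 0.450). LOC_Os11g42800 had 23.0 and 22.3 FPKM in shade against 9.85 and 22.5 FPKM in white light (0.57 ± 0.33, adjusted p = 0.698). For both, white light coleoptile replicate 1 was low and replicate 2 near the shaded libraries. Without replicate 2 of the white light coleoptile both were called higher in shade, at 1.05 ± 0.20 (adjusted p = 0.0214) and 1.12 ± 0.18 (adjusted p = 0.0106), in a fit that called 407 loci higher and 1332 lower over the whole table. LOC_Os11g42800 changed by 0.52 ± 0.33 in the first leaf, with 17.3 and 17.9 FPKM in shade against 11.0 and 12.9 FPKM in white light. Another kinesin, LOC_Os03g17910, had 23.0 and 22.8 FPKM in the shaded first leaf against 17.3 and 17.9 FPKM in white light (0.36 ± 0.14, adjusted p = 0.848).

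Most kinesins had a negative value in the shaded first leaf. Of 50, 37 were negative and 13 positive, with a median of -0.20 (log2), and of all 89 members 61 were negative, where 48.8% of all loci were, with a median of -0.14 against 0.01 over all loci tested. The pattern depended on shaded first leaf replicate 2: without it 46 of 89 members were negative, with a median of -0.04, and 30 of 50 kinesins, with a median of -0.07, where 48.4% of all loci were negative. Without replicate 1, 66 of 89 members and 39 of 50 kinesins were negative, with medians of -0.27 and -0.29. Both shaded first leaf libraries lay below both white light ones at 31 of 89 members (34.8%), where 18.3% of all loci did so, and 22 of the 31 were kinesins. Both lay above at 9 members (10.1%), where 21.3% of all loci did. In the coleoptile, both shaded libraries lay below both white light ones at 8 members (8.99%, against 15.3% of all loci) and above at 9 (10.1%, against 17.3%). The most negative member in the first leaf was LOC_Os03g17164, a kinesin-related locus with 4.80 and 2.32 FPKM in shade against 7.68 and 7.10 FPKM in white light (-0.93 ± 0.51, limma adjusted p = 1.00). Its replicates in the shaded first leaf were over 2-fold apart, and its values in the coleoptile were 3.81 and 5.71 FPKM in shade against 8.89 and 2.33 FPKM in white light.

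That spread recurred across a block of kinesins. Replicates of the white light coleoptile differed over 2-fold at 24 of 89 members (27.0%), where 21.8% of all loci did, and at 23 of them replicate 1 was the higher (25.8%, against 16.0% of all loci). The 23 loci, picked out after their values were seen, hold 18 kinesins, 3 microtubule-associated loci, the tubulin LOC_Os03g01530 and the tubulin-tyrosine ligase-like locus LOC_Os03g08140, whose annotation names an enzyme family that modifies tubulin tails. The microtubule-associated ones include LOC_Os02g26140, annotated as TANGLED1, which in maize places the plane of cell division, and LOC_Os10g35580, annotated as like the Arabidopsis plus-end protein EB1A. Ratios of replicate 1 to replicate 2 were 2.07 to 4.51, the highest at the kinesin LOC_Os11g35090, with 6.40 FPKM in replicate 1 and 1.42 FPKM in replicate 2. In the shaded first leaf, replicate 1 was over 2-fold above replicate 2 at 15 of 89 members (16.9%, against 4.15% of all loci). All 23 also had replicate 1 above replicate 2 in the shaded first leaf, which held for 47.7% of the 3356 loci in the table with white light coleoptile replicate 1 over 2-fold higher. All 23 had replicate 2 above replicate 1 in the shaded coleoptile, against 43.5% of those 3356 loci.

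Summed over the 23 loci, FPKM was 259 and 125 in the shaded first leaf and 292 and 256 in the white light first leaf, with 143 and 199 in the shaded coleoptile and 306 and 97.3 in the white light coleoptile. White light coleoptile replicate 2 is low by the rule that picked the 23. Shaded first leaf replicate 2, which the rule did not use, was low too. At 22 of 23 loci both shaded coleoptile libraries fell between the white light coleoptile replicates, a gap that the rule itself made over 2-fold. The same share over all loci picked by that rule was not computed. LOC_Os03g01530 had 78.0 and 37.4 FPKM in the shaded and 66.4 and 58.7 FPKM in the white light first leaf, and 47.0 and 62.7 FPKM in the shaded and 79.3 and 26.3 FPKM in the white light coleoptile. The kinesin LOC_Os08g44420 had 13.8 and 6.20 FPKM in the shaded first leaf and 20.0 and 5.58 FPKM in the white light coleoptile. All 23 had a negative shade change in the first leaf, with a median of -0.64, against -0.03 for the other 66 tested members. Without shaded first leaf replicate 2, 20 of the 23 were negative, with a median of -0.20. Of the 31 members with both shaded first leaf libraries below both white light ones, 17 are among the 23. That is 73.9% of the 23, against 22.5% of the 3356 loci picked by the same rule over the table. The 23 were picked by a wide replicate spread, which enters their fit. Larger standard errors and fewer calls follow in part from that rule. Limma standard errors of the 23 had a median of 0.49, against 0.22 for the other 66, and 0 of the 23 passed in a comparison of either kind. With white light coleoptile replicate 1 left out, 8 of them were called higher in the first leaf in white light; replicate 2, the lower one by the way the 23 were picked, then stood alone for its group.

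**Figure D4:**
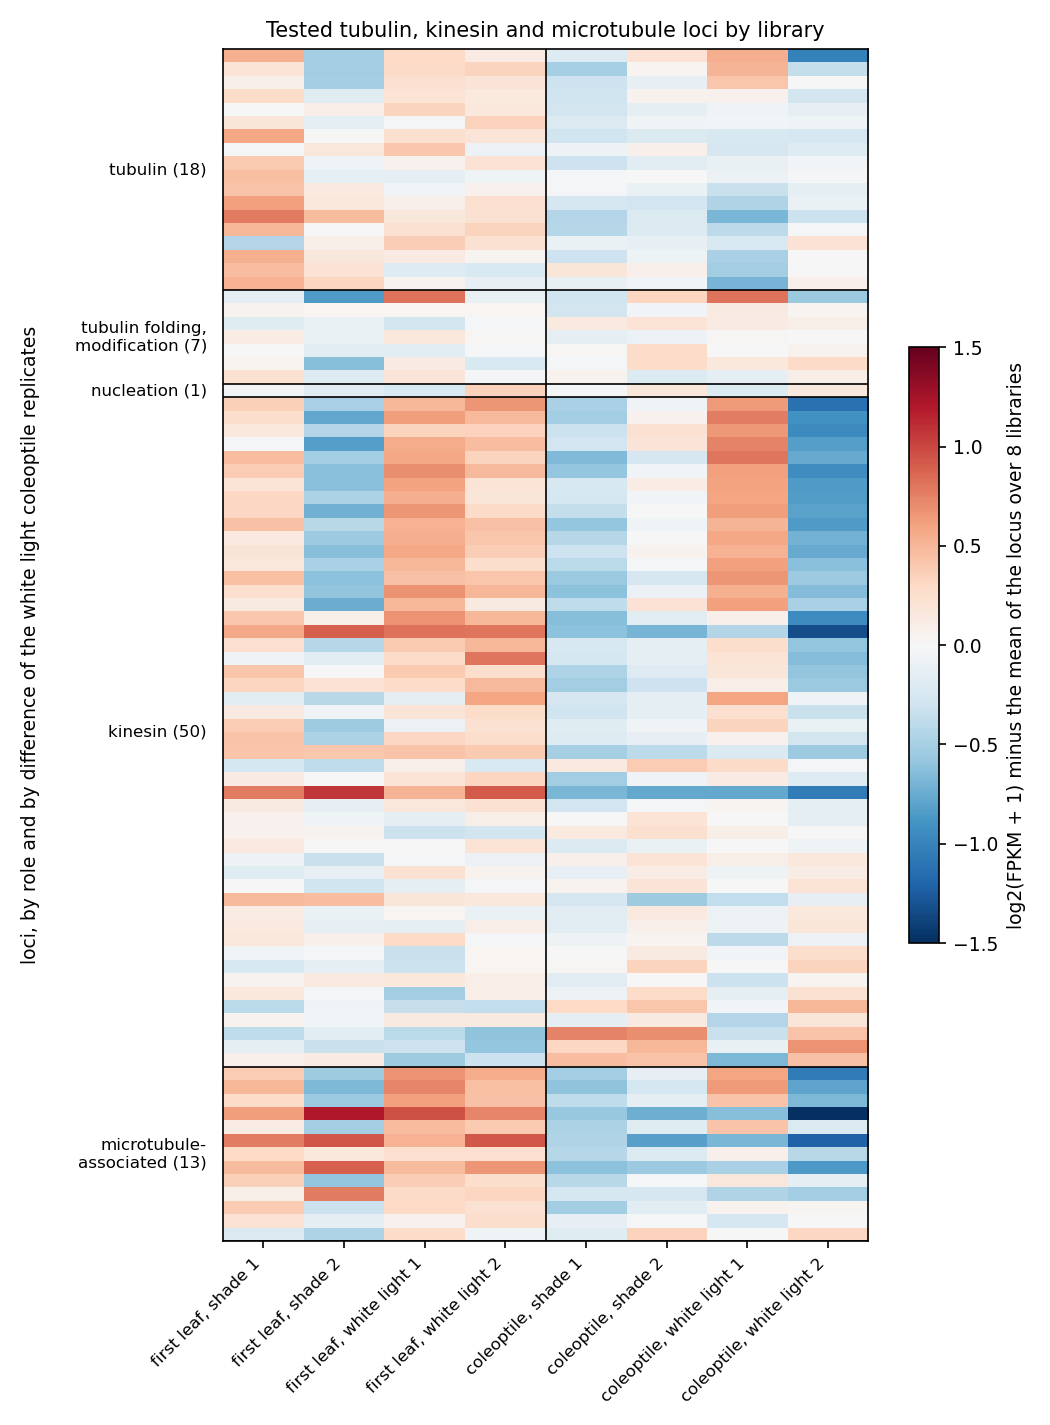
Centred log2(FPKM + 1) of the 89 tested loci in the 8 libraries, grouped by role and ordered within each role by the difference of the white light coleoptile replicates. A block of kinesins at the top of its group is high in white light coleoptile replicate 1 and low in white light coleoptile replicate 2 and in shaded first leaf replicate 2.

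Core histones, made mainly while DNA is copied, mostly had the same order of replicates in the shaded first leaf and the white light coleoptile. In the shaded coleoptile the whole list did not have the order of the microtubule loci. There, 81.0% of the histones picked by the 2-fold rule had replicate 2 higher, against 43.5% of all loci so picked. Replicate 1 was the higher at 44 of 47 in the shaded first leaf, at 28 of 47 in the shaded coleoptile and at 40 of 47 in the white light coleoptile, while among the 89 microtubule loci it was the higher at 72, 12 and 56. Of 47 tested loci of the core histone list, which holds 3 linker histones among its loci, 21 had white light coleoptile replicate 1 over 2-fold above replicate 2, all 21 had replicate 1 higher in the shaded first leaf and 17 had replicate 2 higher in the shaded coleoptile. Of 19 cyclins and cyclin-dependent kinases over 2-fold in that direction, 15 and 17 had those orders. Over all 47 core histone loci, 41 had a negative shade change in the first leaf, with a median of -0.54, and 0 were called. Without shaded first leaf replicate 2, 28 of 47 were negative, with a median of -0.05. Stress and wounding markers went differently: 41 of 85 had white light coleoptile replicate 1 over 2-fold above replicate 2, and 8 of the 41 had replicate 1 higher in the shaded first leaf. The part of dividing cells, or of any difference between the harvested tissues, in the kinesin values was not tested.

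**Figure D5:**
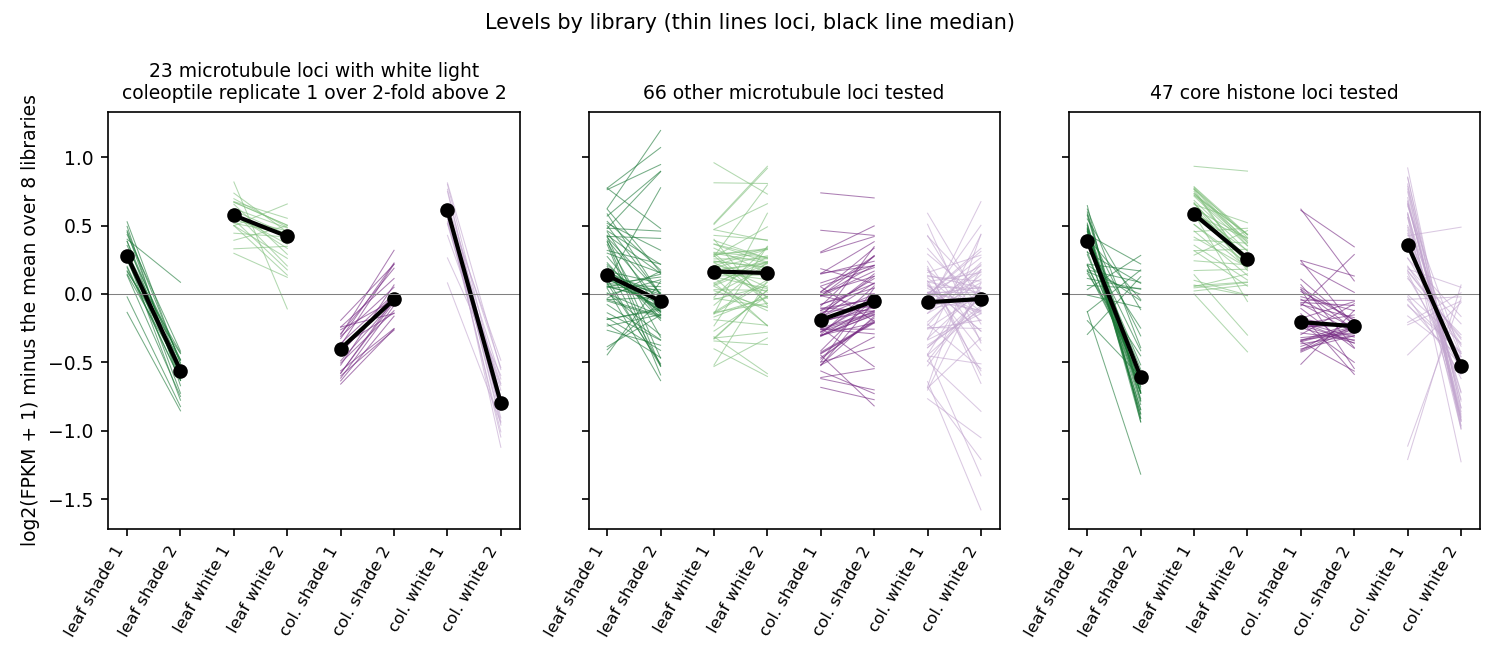
Centred log2(FPKM + 1) by library for the 23 loci with white light coleoptile replicate 1 over 2-fold above replicate 2 (left), the 66 other tested microtubule loci (middle) and the 47 tested core histone loci (right), with thin lines for loci and a black line for the median. Median values of the 23 loci were 0.28 and -0.56 in the shaded first leaf and 0.61 and -0.80 in the white light coleoptile.

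Lists of related loci were read from annotation words, and their shares called can be set beside the 5.92% higher and 5.03% lower of all loci in white light and the 5.67% and 4.63% in shade. Of 24 tested loci of other microtubule and spindle genes, 1 was higher and 1 lower in the first leaf in each light (4.17% each), and 0 changed with shade in either tissue (limma, with 1 lower in the coleoptile and 0 in the first leaf at an unadjusted p under 0.05). Of 75 actin and myosin loci, a list in which 9 hydrolases were caught by the words "acting on", 2 were higher (2.67%) and 1 lower (1.33%) in the first leaf in shade, and 3 higher (4.0%) and 0 lower in white light. The cellulose synthase list was matched by the words cellulose synthase or CESA, without excluding cellulose synthase-like proteins. Of its 31 tested loci, 1 was higher (3.23%) and 3 were lower (9.68%) in the first leaf in each light. Their shade medians were 0.15 in the first leaf, with 25 of 31 positive, and 0.13 in the coleoptile, with 21 of 31 positive, and 0 passed in either tissue (unadjusted, 0 in the first leaf and 1 higher and 3 lower in the coleoptile).

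The 5 tested loci whose 4 group means followed those of LOC_Os11g14220 most closely were LOC_Os07g04160, LOC_Os12g02680, LOC_Os12g37760, LOC_Os09g30230 and LOC_Os01g18584, with Pearson r from 0.99957 to 0.99992 on the log2(FPKM + 1) scale. None is annotated as a tubulin, kinesin or microtubule protein. These are r over 4 points, and 47 loci had r above 0.99.

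Of the 97 loci, 8 had means under 1 FPKM and were not tested. They are LOC_Os06g07280, 5 kinesins and the microtubule-associated loci LOC_Os02g03400 and LOC_Os05g47970. LOC_Os02g03400 had 2.87 FPKM in white light coleoptile replicate 1 and 0.724 FPKM in replicate 2, and 0.160 to 0.403 FPKM in the other 6 libraries.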

How the data were processed

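RNA from the first leaf and the coleoptile, in shade or white light, was sequenced as 8 libraries of paired 150 bp reads. A single table of FPKM values was deposited by the authors, with an annotation text beside each locus. Per the submitters' processing notes, the tools included TopHat2 2.0.14 with Bowtie2 2.2.3, Cuffnorm 2.2.1, Cuffdiff 2.2.1 and Cufflinks 2.2.1, besides Trim Galore 0.3.7, bcl2fastq 2.16.0.10 and FastQC 0.11.2. Neither genome build nor strand setting is given in the sources used here. Fragment totals are unknown. From the step between low values, relative depth was 0.829 to 1.37, but 25.6% to 30.0% of low loci fell on that step in 7 libraries, so whole reads were not recovered and no count model was used. An exact 0 can be a failed estimate.

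Values were tested as log2(FPKM + 1) with limma 3.58.1 in R 4.3.3 (cell means of 4 groups over 8 libraries, empirical Bayes with trend, 4 residual and 3.26 prior degrees of freedom), on the 21014 loci that averaged 1 FPKM or more, with Benjamini-Hochberg adjustment over these loci within each of 5 comparisons. The fit was run on simulated data with an equal spread in all groups, so that run does not bear on groups of unequal spread. The log2(FPKM + 1) scale understates changes of low loci. Tables and plots used Python 3.11.15, pandas 2.3.3 and matplotlib 3.10.9.

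The members and lists were chosen with earlier results of these data known. Named loci were the called members, the 5 highest and 5 lowest members of a comparison with fewer than 5 calls, the tubulins, and the 5 most abundant members of each other group; others named were chosen after their values were seen. Alternatives were a pseudocount of 0.1, no filter, a mean of at least 5 FPKM, median scaling, quantile normalization, the compared groups fitted alone, a replicate block and each library left out. Deviations of same-numbered replicates correlated at -0.15 to 0.09 between groups, so the numbers were not used as pairs. No sequences were used, and gene names are the table's locus identifiers and annotation text.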

Additional observations from a re-analysis of the deposited data

How the results depend on the processing

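With 2 libraries per group, the counts of tissue calls moved with the libraries used, and a group left with 1 library was assumed to vary like the others. With 1 library left out at a time, members called higher in the first leaf ranged from 1 to 17 in white light and from 1 to 9 in shade, and members called lower from 0 to 4 and from 0 to 2. Fits of the compared groups alone called 0 members higher in white light, and 9 higher and 1 lower in shade. Without a filter 5 were called higher in shade. Shade calls in the coleoptile ranged from 0 to 2 with 1 library left out; no alternative gave a shade call in the first leaf or for the difference of responses. The cause of these shifts was not tested.

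Of 654 values of named loci under alternatives, 589 kept direction and call, 57 lost the call, 2 gained it and 6 changed sign, each of the 6 a change that had not passed, with 1 library left out. For shade in the coleoptile, leaving out white light replicate 1 or 2 gave LOC_Os08g41890 0.93 or -0.0054, LOC_Os05g38480 0.30 or -1.26 and LOC_Os01g42070 0.13 or -1.07 (log2). For the difference of shade responses, LOC_Os04g24410 was at -0.076 without white light first leaf replicate 1 and 0.54 without its replicate 2. LOC_Os02g07060 was at -0.00028 without shaded first leaf replicate 1 and 0.46 without its replicate 2, and LOC_Os04g28260 was at -1.40 without white light coleoptile replicate 1 and 0.049 without its replicate 2.

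With the replicate block, 6 members were called higher in the first leaf in white light and 7 in shade, where LOC_Os01g59150 was lost, and 0 changed with shade in either tissue. A block with the shaded coleoptile numbers crossed, added after seeing the data, called 8 in shade. Over all loci, shade calls in the coleoptile were 9 in the fit reported, 0 with a pseudocount of 0.1 and 68 without a filter. Leaving out 1 library at a time, loci higher in the first leaf ranged from 352 to 2079 in white light (1245 in the fit reported) and from 226 to 2311 in shade (1191), and loci lower from 379 to 2241 (1058) and from 311 to 1948 (973). Loci higher after shade then ranged from 0 to 407 in the coleoptile and from 0 to 12 in the first leaf, and loci lower from 0 to 1332 and from 0 to 39.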
